A study of Mus musculus with 36 samples.

Results

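Nnt and 5 other genes whose enzymes make or use NADPH in the mitochondrial matrix were followed in the mouse hypothalamus. They were chosen by gene symbol, with earlier results of these data known, as Nnt, Idh2, Me3, Glud1, Txn2 and Prdx3. All 6 were found among the 24265 genes of the count table and among the 20053 that were abundant enough to be tested. The 36 libraries came from C57BL/6J, NZO/HlLtJ (a model of obesity and diabetes) and the wild-derived CAST/EiJ, all inbred strains labelled as wild type and untreated apart from diet. The control diet had 10% fat and the high-fat, high-sugar (HFHS) diet 44%, both with fiber; feeding began when mice were 6 weeks old and the hypothalamus was collected when they were 15 weeks old. Each of the 12 groups of strain, diet and sex had n = 3 libraries. The labels do not say that libraries of a group came from separate animals, so p-values measure the spread between these samples.

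NADPH in the matrix is the electron source for glutathione reductase and thioredoxin reductase, which keep peroxide-removing enzymes in their reduced form. Nnt, the nicotinamide nucleotide transhydrogenase of the inner membrane, uses the proton gradient to pass hydride from NADH to NADP+. Idh2, Me3 and Glud1 make NADPH from isocitrate, malate and glutamate, and Txn2 and Prdx3 spend it. C57BL/6J carries a deletion of several consecutive Nnt exons that removes functional protein, and it is widely used as a strain without this enzyme. The labels give no Nnt genotype, and the strains differ at many other loci, so an effect of the Nnt allele and of the rest of a strain's genome cannot be told apart here. The question put to the data was whether any of the other genes was higher in C57BL/6J, where Nnt is disrupted.

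The mouse reference genome is itself C57BL/6J, so its Nnt gene model already lacks the deleted exons. The run printed here is shown because it is the place where the deleted stretch is missing from the model, a position taken from background knowledge of the full-length protein and not from the deposited files. It joins the last 90 bases of exon 7 (chr13:119381676-119381765) to the first 90 of exon 8 (chr13:119374685-119374774) on the minus strand of GRCm38, in a GENCODE M21 transcript of 17 exons, 3464 bases and 2505 coding bases (ENSMUST00000099149). Capitals mark the 15 bases on each side of the joint.
Nnt: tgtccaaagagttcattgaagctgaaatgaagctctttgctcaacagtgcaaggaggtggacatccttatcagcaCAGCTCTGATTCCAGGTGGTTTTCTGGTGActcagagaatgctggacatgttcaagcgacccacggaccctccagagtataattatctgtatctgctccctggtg
An intron of 6901 bases separates these exons in the reference. Both exons are coding, and the annotated reading frame runs on across the joint. Reads were mapped to GRCm38 per the submitters' processing notes, and no source used here says whether strain-specific sequences were added. Where a strain carries the missing exons, the reference model has no place for their reads in the Nnt count. The effect of this on the Nnt level was not tested.

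Between 23.9 and 47.3 M counts were assigned to genes per library (median 34.6 M), and the common biological coefficient of variation was 12.1%. The libraries that stood apart were CAST/EiJ controls. CAST/EiJ control female 1 had a summed level of 6 pituitary markers of 2434 CPM (counts per 1 M assigned, scaled with TMM factors), against 270 CPM in CAST/EiJ control male 1 and 2.18 to 55.9 CPM in the other 34 libraries. It also had the highest sum of hypothalamic peptide genes, 2181 CPM, and the lowest sum of endothelial markers, 98.2 CPM. Idh2, Txn2, Prdx3 and Glud1 were each higher in this library than in the other 35, so their differences between CAST/EiJ and C57BL/6J are given with and without it. CAST/EiJ control female 2 moved the count of diet calls in CAST/EiJ most when left out, as given with the diet results.

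Nnt (ENSMUSG00000025453, chr13:119335448-119408997, minus strand, positions as deposited) was lower in C57BL/6J than in either other strain, and no library overlapped. Its level in the 12 C57BL/6J libraries had a lowest, median and highest value of 21.2, 23.4 and 26.4 CPM. In NZO/HlLtJ these were 34.7, 37.4 and 39.8 CPM, and in CAST/EiJ 35.3, 39.9 and 42.8 CPM. The highest C57BL/6J library therefore lay below the lowest library of both other strains. NZO/HlLtJ exceeded C57BL/6J by 0.67 ± 0.035 log2 (edgeR estimate ± SE, 1.59-fold, adjusted p = 4.19e-16 by edgeR's quasi-likelihood test, n = 12 and 12). CAST/EiJ exceeded it by 0.77 ± 0.035 log2 (1.71-fold, adjusted p = 4.75e-18). A gene is called here at an adjusted p under 0.05 over all 20053 genes, and many genes were called by strain: 26.6% for NZO/HlLtJ against C57BL/6J and 55.5% for CAST/EiJ against C57BL/6J. The size of the Nnt difference was passed by 9.47% of genes in the NZO/HlLtJ comparison and by 17.8% in the CAST/EiJ comparison. The transcript was present in every C57BL/6J library, and Nnt had 538 to 1918 counts per library over the whole set. GENCODE M21 also lists a second protein-coding gene named Nnt (ENSMUSG00000116207) that overlaps this one on the same strand. That second gene is not in the count table, and its effect on the Nnt count was not tested. Fewer cells that express a gene and less of its RNA per cell cannot be told apart in bulk tissue, for this gene or for the others.

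NZO/HlLtJ and CAST/EiJ differed little in Nnt. NZO/HlLtJ less CAST/EiJ was −0.098 ± 0.034 log2 (adjusted p = 0.0171 by edgeR), and the ranges overlapped. That call was lost when single libraries were left out: the adjusted p was 0.0519 without NZO/HlLtJ control male 2, 0.0557 without NZO/HlLtJ HFHS male 2 and 0.0525 without CAST/EiJ HFHS female 1. The 2 differences from C57BL/6J held without any one library, at 0.66 to 0.70 log2 for NZO/HlLtJ and 0.76 to 0.81 log2 for CAST/EiJ.

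**Figure D1:**
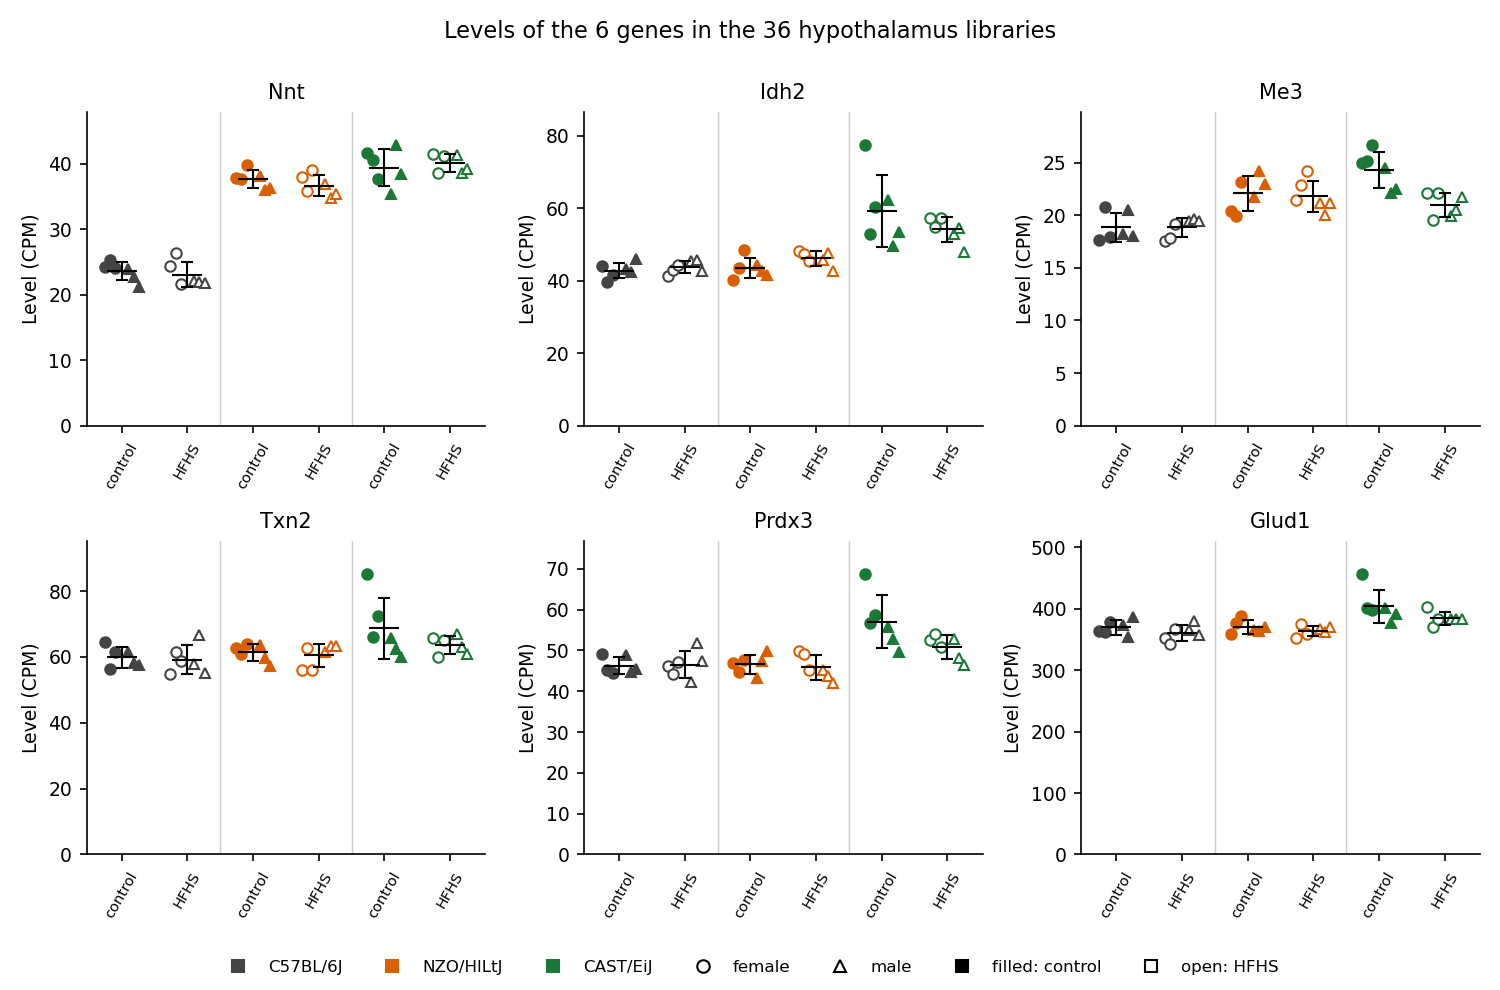
Level of each gene (vertical axis, TMM-scaled CPM, from 0) in every library, by strain (colour), diet (filled control, open HFHS) and sex (circles female, triangles male); the black bar and whiskers are the mean ± SD of 6 libraries. Nnt in C57BL/6J (21.2 to 26.4 CPM) lies apart from the other strains, and 1 CAST/EiJ control female stands above all others for Idh2, Txn2, Prdx3 and Glud1.

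None of the other 5 genes was called higher in C57BL/6J. Of the 6 genes, 2 were called higher in NZO/HlLtJ than in C57BL/6J and 0 lower, against 12.5% higher and 14.1% lower of all genes. In CAST/EiJ 6 were called higher and 0 lower, against 27.3% and 28.2% of all genes. For NZO/HlLtJ against CAST/EiJ, 0 were called higher and 5 lower, against 26.9% and 26.8% of all genes (53.7% in either direction). The median over the 6 genes was 0.042 log2 for NZO/HlLtJ and 0.24 log2 for CAST/EiJ, beside medians over all genes of 0.0040 and 0.00097.

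Me3 (ENSMUSG00000030621, chr7:89632392-89854359, plus strand), the mitochondrial malic enzyme that makes NADPH and pyruvate from malate, was lower in C57BL/6J than in both other strains, by less than Nnt. Its lowest, median and highest level was 17.6, 18.7 and 20.7 CPM in C57BL/6J, 19.9, 21.6 and 24.2 CPM in NZO/HlLtJ and 19.5, 22.1 and 26.6 CPM in CAST/EiJ. The groups overlapped at their edges: 9 of 12 NZO/HlLtJ and 9 of 12 CAST/EiJ libraries lay above the highest C57BL/6J library. NZO/HlLtJ was higher than C57BL/6J by 0.22 ± 0.039 log2 (1.16-fold, adjusted p = 4.64e-05 by edgeR) and CAST/EiJ by 0.26 ± 0.039 log2 (1.20-fold, adjusted p = 1.12e-06). Without CAST/EiJ control female 1 the second was 0.26 log2 (adjusted p = 1.29e-06). Both calls held in every alternative that was run, over 0.14 to 0.25 log2 and 0.16 to 0.37 log2. Between NZO/HlLtJ and CAST/EiJ the difference was −0.042 log2, with a 95% interval of −0.12 to 0.037. The estimated count of Me3 was not whole in any of the 36 libraries, and where its divided reads also matched was not tested. It overlaps the antisense gene A230065N10Rik, which is in the count table, and the use of strand in counting is not given. Gm45793 on the same strand and the pseudogene Gm15744 also overlap Me3, and neither is in the count table. The level of Me3 is uncertain to that extent.

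Idh2 (ENSMUSG00000030541, chr7:80094846-80115392, minus strand), which oxidises isocitrate with NADP+, was higher in CAST/EiJ than in either other strain. The C57BL/6J libraries had a lowest, median and highest level of 39.7, 43.0 and 45.9 CPM, the NZO/HlLtJ libraries 40.2, 44.8 and 48.4 CPM, and the CAST/EiJ libraries 47.9, 54.7 and 77.3 CPM. Every CAST/EiJ library was above every C57BL/6J library, while C57BL/6J and NZO/HlLtJ lay over each other. CAST/EiJ exceeded C57BL/6J by 0.39 ± 0.046 log2 (1.31-fold, adjusted p = 2.28e-08 by edgeR) and NZO/HlLtJ less CAST/EiJ was −0.34 log2 (adjusted p = 2.98e-07; −0.28 log2 without CAST/EiJ control female 1). Without CAST/EiJ control female 1, whose 77.3 CPM was the highest of all, the excess over C57BL/6J was 0.34 log2 (adjusted p = 3.87e-09) and the CAST/EiJ mean was 54.8 ± 4.25 CPM (SD, n = 11). NZO/HlLtJ differed from C57BL/6J by 0.051 log2, with a 95% interval of −0.044 to 0.15. An uncharacterised gene on the same strand, Gm45203, overlaps Idh2.

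Glud1 (ENSMUSG00000021794, chr14:34310727-34345144, plus strand), glutamate dehydrogenase, can use either NAD+ or NADP+, and CAST/EiJ had slightly more of its transcript than the other strains. Its lowest, median and highest level was 342, 364 and 386 CPM in C57BL/6J, 352, 366 and 389 CPM in NZO/HlLtJ and 370, 387 and 456 CPM in CAST/EiJ. The ranges overlapped in each pair of strains. The estimated count of Glud1 was not whole in 16 libraries, a limit it shares with Me3. CAST/EiJ was higher than C57BL/6J by 0.11 ± 0.025 log2 (1.08-fold, adjusted p = 0.000484 by edgeR), and by 0.088 log2 without CAST/EiJ control female 1 (adjusted p = 0.00114). NZO/HlLtJ less CAST/EiJ was −0.10 log2 (adjusted p = 0.00114), and −0.076 log2 without that library (adjusted p = 0.00427). In males alone the difference between CAST/EiJ and C57BL/6J was 0.065 log2 and was not called (adjusted p = 0.151). For NZO/HlLtJ against C57BL/6J it was 0.0086 log2, with a 95% interval of −0.043 to 0.061.

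Txn2 and Prdx3, the 2 members whose proteins spend matrix NADPH, were also called higher in CAST/EiJ than in the other strains. Txn2 (ENSMUSG00000005354, chr15:77915047-77929006, minus strand), mitochondrial thioredoxin, had a lowest, median and highest level of 54.9, 58.4 and 66.7 CPM in C57BL/6J, 56.0, 62.0 and 64.1 CPM in NZO/HlLtJ and 59.9, 65.5 and 85.1 CPM in CAST/EiJ. All 3 ranges overlapped. CAST/EiJ exceeded C57BL/6J by 0.15 ± 0.039 log2 (1.11-fold, adjusted p = 0.00168 by edgeR), and by 0.12 log2 without CAST/EiJ control female 1 (adjusted p = 0.00553). NZO/HlLtJ less CAST/EiJ was −0.12 log2 (adjusted p = 0.0124), and −0.080 log2 without that library, when it was no longer called (adjusted p = 0.0520). The difference between CAST/EiJ and C57BL/6J was also not called in males alone (0.086 log2, adjusted p = 0.216) or on the HFHS diet alone (0.11 log2, adjusted p = 0.122).

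Prdx3 (ENSMUSG00000024997, chr19:60864051-60874556, minus strand), the matrix peroxiredoxin that reduces hydrogen peroxide and is restored by Txn2, had a lowest, median and highest level of 42.4, 45.9 and 51.9 CPM in C57BL/6J, 42.1, 46.1 and 49.9 CPM in NZO/HlLtJ and 46.4, 52.8 and 68.7 CPM in CAST/EiJ. In CAST/EiJ 8 of 12 libraries lay above the highest C57BL/6J library. CAST/EiJ exceeded C57BL/6J by 0.21 ± 0.038 log2 (1.16-fold, adjusted p = 1.84e-05 by edgeR), and by 0.18 log2 without CAST/EiJ control female 1 (adjusted p = 4.54e-05). In males alone it was 0.12 log2 and not called (adjusted p = 0.0674), and on the HFHS diet alone 0.13 log2 (adjusted p = 0.0541). NZO/HlLtJ less CAST/EiJ was −0.22 log2 (adjusted p = 1.2e-05), and −0.19 log2 without CAST/EiJ control female 1 (adjusted p = 3.67e-05). NZO/HlLtJ differed from C57BL/6J by −0.0062 log2, with a 95% interval of −0.083 to 0.071.

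**Figure D2:**
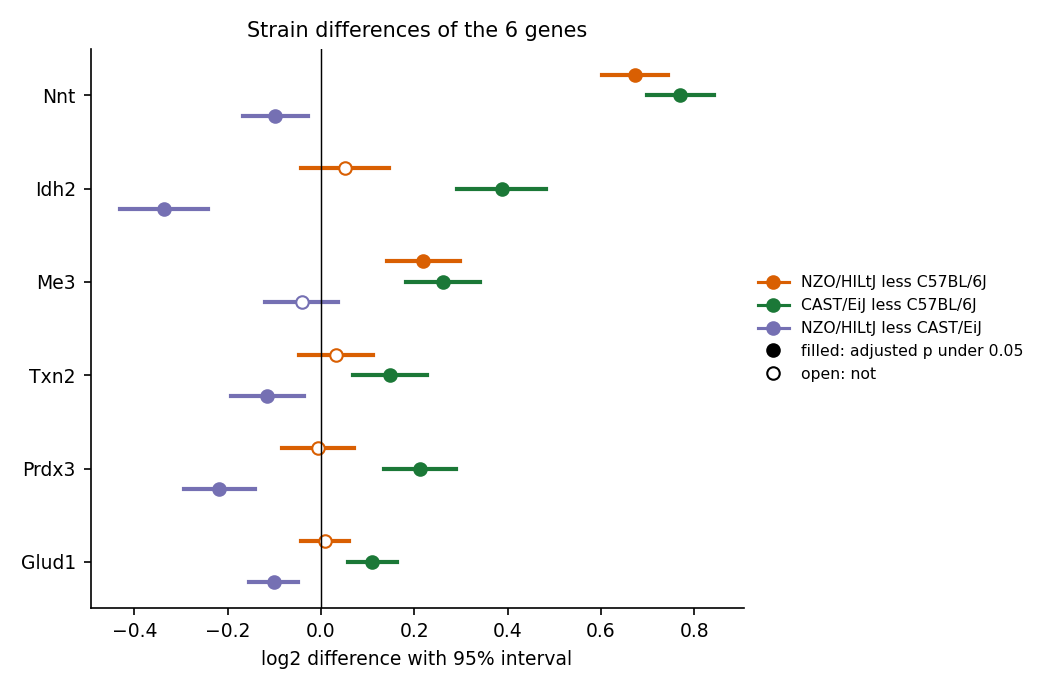
Log2 strain differences of the 6 genes (horizontal axis) with 95% intervals from edgeR, for the 3 pairs of strains averaged over diet and sex (12 against 12 libraries); filled points are called at an adjusted p under 0.05. Nnt and Me3 are higher than C57BL/6J in both strains, and Idh2, Glud1, Txn2 and Prdx3 are called higher than C57BL/6J in CAST/EiJ but not in NZO/HlLtJ.

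Per kilobase of the transcript model used for each gene, Glud1 had the highest level and Me3 the lowest in every strain. In C57BL/6J the levels per kilobase were 108 ± 3.72 CPM for Glud1, 31.4 ± 1.77 for Prdx3, 29.0 ± 1.80 for Txn2, 24.8 ± 1.09 for Idh2, 6.73 ± 0.471 for Nnt and 4.20 ± 0.247 for Me3 (mean ± SD, n = 12). The intervals of 1 SD around Prdx3 and Txn2 overlapped, and those of the other neighbours in this order did not. In NZO/HlLtJ Nnt stood at 10.7 ± 0.438 and in CAST/EiJ at 11.5 ± 0.615 CPM per kilobase. In CAST/EiJ Prdx3 (36.5 ± 3.94), Idh2 (32.5 ± 4.39) and Txn2 (32.3 ± 3.39) lay within their spread of each other. Nnt stayed below Idh2 and above Me3 throughout.

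The diet was tested within each strain, 6 HFHS against 6 control libraries. None of the 6 genes was called by edgeR in C57BL/6J, in NZO/HlLtJ or in CAST/EiJ. Few genes were called by edgeR: 0 of 20053 in C57BL/6J (0%; 687 at an unadjusted p under 0.05, 3 with DESeq2 and 0 with limma), 0.145% in NZO/HlLtJ, 0.12% in CAST/EiJ and 0.0299% for the diet effect averaged over strains, where none of the 6 was called either. At an unadjusted p under 0.05 there were 2081 genes in NZO/HlLtJ and 3460 in CAST/EiJ, and DESeq2 called 150 and 395. Nnt lay at 23.6 ± 1.42 CPM on control and 23.0 ± 1.91 CPM on HFHS diet in C57BL/6J, at 37.7 ± 1.36 and 36.7 ± 1.61 CPM in NZO/HlLtJ, and at 39.4 ± 2.78 and 40.1 ± 1.41 CPM in CAST/EiJ (SD, n = 6 each). The diet groups overlapped in all 3 strains. The 95% interval of the diet difference of Nnt was −0.14 to 0.069 log2 in C57BL/6J, −0.14 to 0.060 in NZO/HlLtJ and −0.074 to 0.12 in CAST/EiJ.

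In C57BL/6J the other 5 genes had diet differences of −0.035 to 0.032 log2, and none had an unadjusted p under 0.05. In CAST/EiJ 2 genes had one, and both missed the corrected threshold. Me3 had a lowest, median and highest level of 22.1, 24.7 and 26.6 CPM on control and 19.5, 21.1 and 22.1 CPM on HFHS diet. Of the CAST/EiJ controls, 5 of 6 were above every HFHS library. The difference was −0.21 ± 0.054 log2 (adjusted p = 0.0895 by edgeR), and it was called by DESeq2 (adjusted p = 0.0240) and in females alone (−0.27 log2). Prdx3 had 49.7, 56.2 and 68.7 CPM on control and 46.4, 51.8 and 54.1 CPM on HFHS diet, a difference of −0.16 ± 0.053 log2 (adjusted p = 0.135 by edgeR). The other differences in CAST/EiJ were −0.13 log2 for Idh2, −0.10 for Txn2 and −0.071 for Glud1, with 95% intervals that held 0. Single libraries moved these values. Without CAST/EiJ control female 2, Me3 (adjusted p = 0.0158), Prdx3 (adjusted p = 0.0278) and Idh2 (adjusted p = 0.0495) were called and the count over all genes went from 24 to 2681. Without CAST/EiJ control female 1, Me3 stayed at −0.21 log2 (adjusted p = 0.199) while Idh2 moved to −0.038, Txn2 to −0.045, Prdx3 to −0.11 and Glud1 to −0.033 log2.

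**Figure D3:**
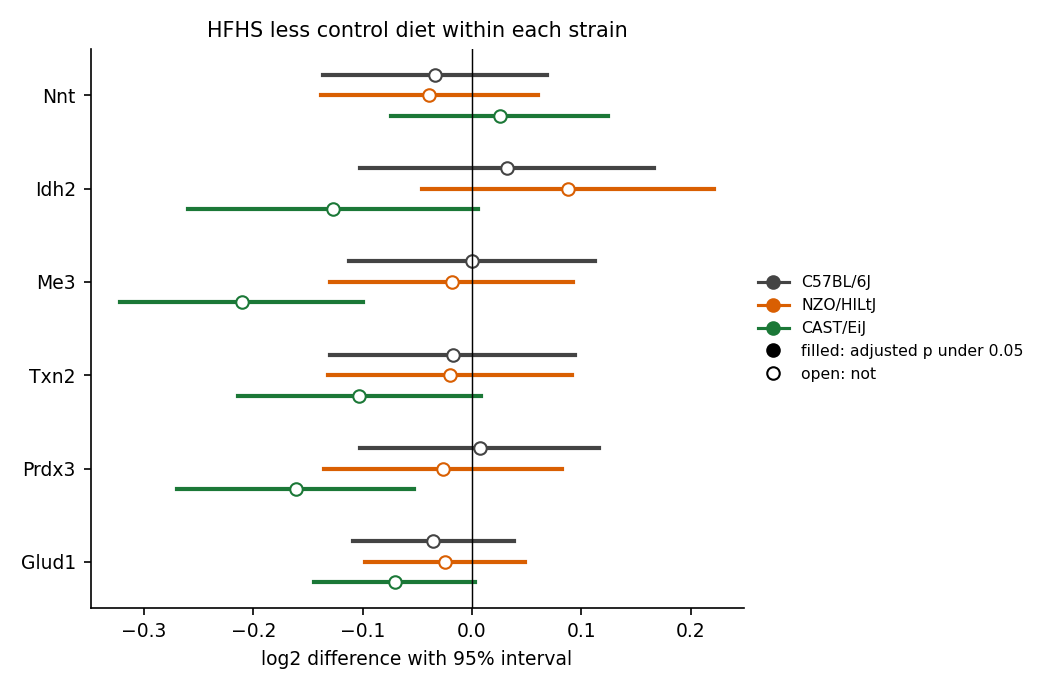
Log2 difference of HFHS less control diet (horizontal axis) with 95% intervals from edgeR for each gene within each strain (6 against 6 libraries); open points are not called at an adjusted p under 0.05. No point is filled, and Me3 and Prdx3 in CAST/EiJ are the only ones whose interval leaves out 0.

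Red-cell transcripts moved with diet in the same strain: 4 of 5 blood markers were called lower on HFHS diet in CAST/EiJ, as were 4 of 5 when the diets were compared over all strains. Their part in the diet values of Me3 and Prdx3 was not tested. A joint test of whether the diet effect differed between strains called none of the 6 genes (0.115% of all genes were called). The smallest p was that of Me3, whose diet effect in CAST/EiJ less that in C57BL/6J was −0.21 log2 (adjusted p = 0.238 by edgeR).

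Sex made no called difference in the 6 genes, where 0.175% of all genes were called. Mean Nnt in C57BL/6J was 24.3 ± 1.61 CPM for females and 22.3 ± 0.940 CPM for males (SD, n = 6 each). In NZO/HlLtJ the means were 38.1 ± 1.32 and 36.3 ± 1.21 CPM, and in CAST/EiJ 40.2 ± 1.68 and 39.3 ± 2.59 CPM. Females exceeded males by 0.075 ± 0.028 log2 over the strains, which failed the correction (adjusted p = 0.466 by edgeR), as did 0.067 log2 for Prdx3 (adjusted p = 0.542). A sex difference that changed with strain was called for 0 of 20053 genes (0%; 2378 at an unadjusted p under 0.05, 23 with DESeq2 and 1 with limma) and for none of the 6.

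Libraries of an inbred strain should share 1 Nnt genotype, and the spread of Nnt within each strain was set against that of the other genes. Of 15 such relations (5 genes in 3 strains, n = 12 libraries each), none passed the correction. The smallest p belonged to Idh2 in C57BL/6J, which was higher in libraries with less Nnt: Pearson's r was −0.68 (permutation p = 0.0154, adjusted p = 0.231) and Spearman's rho −0.67 (permutation p = 0.0195, adjusted p = 0.293). Without the 2 libraries farthest from the median of Nnt, r was −0.74. Glud1 in C57BL/6J gave r = −0.55 (permutation p = 0.0642, adjusted p = 0.481) and rho = −0.60 (permutation p = 0.0421, adjusted p = 0.316), and r was −0.098 without 2 libraries, so that relation rests on them. For Idh2 the r was 0.14 in NZO/HlLtJ and −0.088 in CAST/EiJ. In C57BL/6J Idh2 had 42.3 ± 1.75 CPM among females and 44.2 ± 1.65 CPM among males (SD, n = 6 each), the opposite order to Nnt, and the relation was not tested within each sex.

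The wider supply of mitochondrial NADPH, together with related genes of mitochondrial folate metabolism and NADP+ making, was described with gene lists. These lists were chosen with earlier results of these data known. In the list of 10 genes that holds Nnt, Idh2, Me3 and Glud1, 5 were called higher and 1 lower in NZO/HlLtJ than in C57BL/6J, and 7 higher and 1 lower in CAST/EiJ, with medians of 0.12 and 0.18 log2. Over all genes, 12.5% were higher and 14.1% lower in NZO/HlLtJ, and 27.3% and 28.2% in CAST/EiJ, and the list counts that follow stand beside these shares. Without the 4 members, 3 of the 6 genes left were higher and 1 lower in each strain, with a median of 0.12 log2 in both. Mthfd1l, the mitochondrial formate-producing enzyme, was at 15.9 ± 1.27 CPM in C57BL/6J, against 23.9 ± 1.44 CPM for NZO/HlLtJ and 18.3 ± 1.61 CPM for CAST/EiJ (SD, n = 12). It was higher by 0.59 log2 (adjusted p = 1.69e-11 by edgeR) and 0.20 log2 (adjusted p = 0.000566). Nadk2, the mitochondrial NAD kinase that makes the NADP+ pool, was higher by 0.15 and 0.30 log2, and Mthfd2l, a mitochondrial folate dehydrogenase, by 0.13 and 0.16 log2. The exception was Mthfd2, the related folate dehydrogenase and cyclohydrolase. It was higher in C57BL/6J, at 10.3 ± 1.41 CPM against 8.38 ± 0.886 CPM in NZO/HlLtJ (−0.29 log2, adjusted p = 0.00208) and 7.78 ± 0.924 CPM in CAST/EiJ (−0.40 log2, adjusted p = 1.94e-05). Shmt2 and Aldh1l2, also of mitochondrial folate metabolism, were not called in either comparison.

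Of 12 mitochondrial peroxide and thiol enzymes, 0 were called higher and 3 lower in NZO/HlLtJ, and 5 higher and 4 lower in CAST/EiJ, with medians of 0.0045 and 0.062 log2; without CAST/EiJ control female 1 the NZO/HlLtJ counts were 2 and 3. The 3 of 12 called in NZO/HlLtJ are near the 26.6% of all genes, and this list holds Txn2 and Prdx3, without which 3 of 10 were higher and 4 lower in CAST/EiJ. Gsr, glutathione reductase, was at 22.4 ± 1.91 CPM in C57BL/6J, 24.4 ± 1.92 CPM for NZO/HlLtJ and 32.5 ± 3.71 CPM for CAST/EiJ, a CAST/EiJ difference of 0.53 log2 (adjusted p = 4.93e-11 by edgeR). Sod2, the matrix superoxide dismutase, was lower in NZO/HlLtJ (146 ± 11.4 CPM) and higher in CAST/EiJ (192 ± 9.08 CPM) than in C57BL/6J (165 ± 9.78 CPM). Msrb2, a methionine sulfoxide reductase, was highest in C57BL/6J, at 17.3 ± 1.68 CPM against 15.5 ± 1.50 and 12.6 ± 1.07 CPM. Glrx2, mitochondrial glutaredoxin, was lower in CAST/EiJ than in C57BL/6J by a log2 difference of −0.32 (adjusted p = 4.43e-09). Txnrd2, the reductase that recharges Txn2, was lower in CAST/EiJ than in C57BL/6J, with a log2 difference of −0.21 (adjusted p = 0.00232), while Txn2 was higher.

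**Figure D4:**
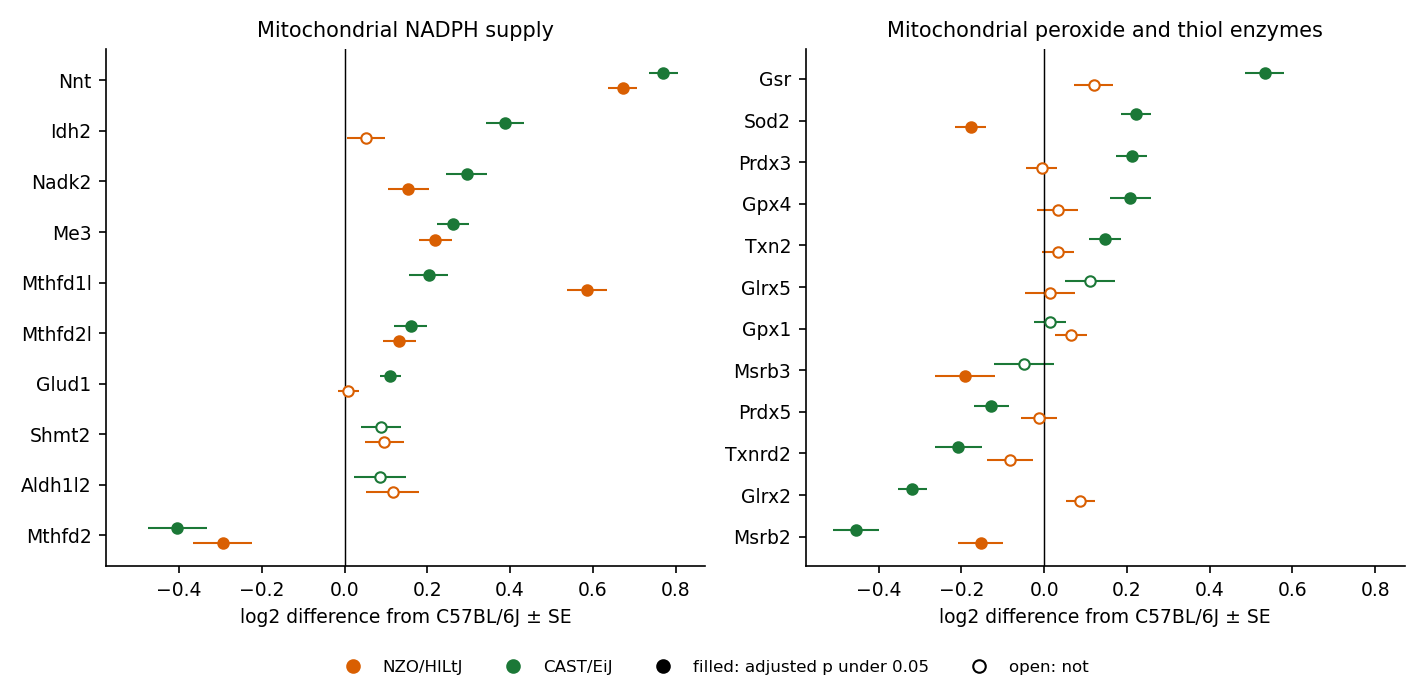
Log2 difference from C57BL/6J (horizontal axis, edgeR estimate ± SE, 12 against 12 libraries) in NZO/HlLtJ and CAST/EiJ. Shown are 10 genes of mitochondrial NADPH supply and related folate metabolism, and 12 mitochondrial peroxide and thiol genes. Filled points are called at an adjusted p under 0.05. Mthfd2 at −0.29 and −0.40 is the gene of the supply list that is higher in C57BL/6J.

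Outside the matrix the counts were mixed. Of 11 genes of cytosolic NADPH supply, 1 was called higher and 2 lower in NZO/HlLtJ, and 4 higher and 3 lower in CAST/EiJ. G6pdx, the entry enzyme of the pentose phosphate pathway, did not pass the test in either comparison, at 45.5 ± 2.83, 45.6 ± 2.49 and 46.6 ± 5.02 CPM, in the order C57BL/6J, NZO/HlLtJ, CAST/EiJ. Me1, the cytosolic malic enzyme, differed by −0.19 log2 in NZO/HlLtJ and by 0.36 log2 in CAST/EiJ, both called. Pgd, a later pentose phosphate enzyme, was higher in both, by 0.095 and 0.13 log2. Of 16 genes of cytosolic thiol defence and the Nrf2 response, 4 were called higher and 1 lower in NZO/HlLtJ, and 8 higher and 0 lower in CAST/EiJ, where leaving out CAST/EiJ control female 1 gave 7 higher and 3 lower. Slc7a11, the cystine importer, was higher in both strains, by 0.50 and 0.21 log2. Hmox1, heme oxygenase, was at 3.91 ± 0.461 CPM in C57BL/6J and 5.76 ± 0.499 CPM in NZO/HlLtJ.

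Of 18 genes of the citric acid cycle and its NAD-linked partners, 1 was called higher and 10 lower in NZO/HlLtJ (median −0.089 log2), and 10 higher and 5 lower in CAST/EiJ (median 0.075 log2). Fh1, fumarase, and Sucla2, a subunit of succinyl-CoA synthetase, were highest in C57BL/6J in both comparisons, at −0.19 and −0.087 log2 for Fh1 and −0.11 and −0.13 log2 for Sucla2. Me2, the NAD-linked mitochondrial malic enzyme, went the opposite ways, −0.25 log2 in NZO/HlLtJ and 0.28 log2 in CAST/EiJ. Of 40 nuclear genes of oxidative phosphorylation and mitochondrial upkeep, 0 were called higher and 6 lower in NZO/HlLtJ, and 8 higher and 8 lower in CAST/EiJ. Without CAST/EiJ control female 1 these counts were 1 and 10 in NZO/HlLtJ, and 6 and 12 in CAST/EiJ. The 6 of 40 and 16 of 40 called over all libraries lie below the 26.6% and 55.5% of all genes. Cycs, cytochrome c, was at 69.7 ± 3.99 CPM in C57BL/6J, 60.8 ± 5.11 CPM for NZO/HlLtJ and 125 ± 12.9 CPM for CAST/EiJ. With diet or sex, no gene of these 6 lists was called by edgeR over all libraries; the settings that called Me3, Prdx3 or Idh2 for diet in CAST/EiJ are given above.

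Cell type markers also moved with strain. All 8 oligodendrocyte markers were called lower than in C57BL/6J in NZO/HlLtJ (median −0.42 log2) and in CAST/EiJ (median −0.73 log2). Their summed level ran from 4280 to 6689 CPM in C57BL/6J, from 3215 to 4353 CPM in NZO/HlLtJ and from 2105 to 6137 CPM in CAST/EiJ. The highest CAST/EiJ value was 1 library: the control females had 3229, 3535 and 6137 CPM. No other group of that strain passed 3375 CPM. Of 10 astrocyte markers, 5 were called higher and 1 lower in each strain, and their sum ran from 3328 to 4035 CPM in C57BL/6J, from 4097 to 5579 CPM in NZO/HlLtJ and from 3558 to 4754 CPM in CAST/EiJ. The sum of 10 neuronal markers was 3460 to 3936, 3259 to 3645 and 3325 to 3772 CPM. Hypothalamic peptide genes were present in all 3 strains, with a summed level of 592 to 946, 826 to 1088 and 863 to 2181 CPM. Of these 15 genes, 3 were called higher and 0 lower than in C57BL/6J in NZO/HlLtJ, and 6 and 0 in CAST/EiJ. For 6 choroid plexus markers these counts were 1 and 0 in NZO/HlLtJ, and 1 and 4 in CAST/EiJ. In the same order, 4 oligodendrocyte precursor markers gave 0 and 2, and 0 and 4. Blood markers (5 genes) gave 3 and 0, and 0 and 1, and the 6 pituitary markers 1 and 0, and 3 and 1. The part of these shifts in the differences of the 6 genes was not tested.

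Nnt was also compared with the genes beside it on chromosome 13, since strains differ in whole haplotypes. Of the 5 nearest tested genes on each side, 0 were called higher and 4 lower in NZO/HlLtJ than in C57BL/6J, and 3 higher and 3 lower in CAST/EiJ, beside 26.6% and 55.5% of all genes called in either direction. Paip1, a translation factor gene 19.6 kb away, did not pass the test in either, at 61.6 ± 2.97 CPM in C57BL/6J, 58.0 ± 3.47 CPM for NZO/HlLtJ and 63.2 ± 4.17 CPM for CAST/EiJ. Beyond it lay a block of genes that were higher in C57BL/6J. 4833420G17Rik, 53.8 kb away, was at 30.7 ± 2.17 CPM in C57BL/6J, 7.75 ± 0.762 CPM for NZO/HlLtJ and 2.79 ± 0.339 CPM for CAST/EiJ, differences of −1.99 and −3.46 log2. Gm7120, 78.9 kb away, was at 10.7 ± 3.63, 2.89 ± 0.543 and 1.23 ± 0.330 CPM. Gm9752, which overlaps 4833420G17Rik, was lower in both strains, at −1.19 and −2.88 log2. 3110070M22Rik, which overlaps Gm7120, was lower in NZO/HlLtJ, at −2.09 log2, and stood at −0.32 log2 in CAST/EiJ, where it was not called. Reads of overlapping genes cannot be assigned with certainty here, and the effect of strain sequence differences on mapping was not tested. On the other side, Fgf10, a growth factor gene 543 kb away, was higher in CAST/EiJ by 0.42 log2, and Mrps30, a mitochondrial ribosome gene, by 0.18 log2.

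**Figure D5:**
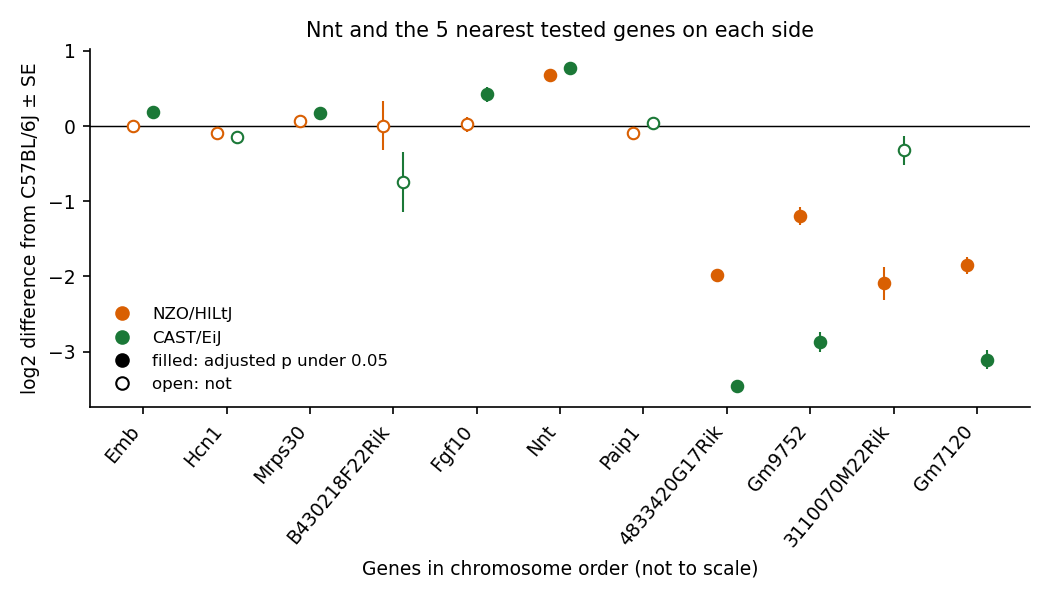
Log2 difference from C57BL/6J (vertical axis, edgeR estimate ± SE) of Nnt and its 5 nearest tested neighbours on each side in NZO/HlLtJ and CAST/EiJ, in chromosome order and not to scale; filled points are called at an adjusted p under 0.05. Nnt is higher in both strains while 4833420G17Rik (−1.99 and −3.46), Gm9752 and Gm7120 are lower in both.

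The genes whose profile over the 36 libraries was most like that of Nnt were Ntn4, Tnip1, Ndn, BC022687 and Oraov1, out of 15448 candidates with a mean of at least 1 CPM. Likeness was the root mean square difference of log2 CPM after each gene was centred on its mean, which was 0.13 for Ntn4 against a spread of 0.35 for Nnt itself. Ntn4, a netrin of basement membranes, was at 9.85 ± 0.702 CPM in C57BL/6J, 17.1 ± 1.89 CPM for NZO/HlLtJ and 17.2 ± 1.55 CPM for CAST/EiJ. Ndn, the imprinted gene encoding necdin, was at 402 ± 27.7, 707 ± 42.0 and 760 ± 76.7 CPM. The closest mirror images were Ints7, Trub1 and Pgk1. When the ranking was made on the deposited variance-stabilized values, 1 of the 5 like genes and 2 of the 3 mirror images were shared. Pgk1, a glycolytic enzyme, was at 305 ± 13.4 CPM in C57BL/6J, 178 ± 16.3 CPM for NZO/HlLtJ and 171 ± 14.5 CPM for CAST/EiJ. The other 5 genes were left out of the candidates beforehand, so this ranking says nothing about how closely they follow Nnt.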

How the data were processed

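RNA was sequenced from polyadenylated transcripts as paired reads of 36 libraries, per the labels' protocols. The authors deposited expected counts per gene (estimated counts that share out reads matching several places), per the file headers, and a second table of log2 values after a variance-stabilizing transformation (VST) made with DESeq2 according to the submitters' processing notes, which also name GRCm38 as the genome build. Sources used here do not give the aligner, the counter, the annotation or the use of strand. Whole counts had been assumed in the design; 21.0% of the deposited values were not within 0.001 of a whole number, so expected counts were rounded. Gene positions are as deposited; transcript models and the printed sequence are from GENCODE M21.

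Tests used edgeR 4.0.16 in R 4.3.3: TMM scaling, filterByExpr, 12 group means over all 36 libraries with 24 residual degrees of freedom, quasi-likelihood F-tests and Benjamini-Hochberg adjustment over all genes tested. SE and 95% intervals are derived from these tests. Strain contrasts average diet and sex. Log2 CPM used a prior count of 2. Correlations used 100000 resamples, two-sided. Alternatives were median-ratio size factors, DESeq2 1.42.0, limma 3.58.1 on the VST values, other filters, single diets or sexes, fits restricted to the groups of a contrast, and leaving out single libraries. Scripts were tested on simulated data.

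The members and lists were chosen with earlier results of these data known. Besides the members, up to 4 genes a list are named, by smallest p among those called by strain (both the same way first). Also named are the 5 nearest tested genes on each side of Nnt, the 5 most like it and its 3 closest mirror images. Shmt2, Aldh1l2, Txnrd2, G6pdx, Hmox1 and Me2 were added after their values were seen.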

Additional observations from a re-analysis of the deposited data

Results flagged for a closer look

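Each of the 6 genes was examined for a library far from the rest in the 6 groups of strain and diet (36 sets of 6 libraries). One set held such a library: Glud1 in CAST/EiJ on the control diet, where control female 1 had 456 CPM, the nearest library 402 CPM and the lowest 377 CPM. Its gap was 68.3% of the range of the 6 libraries, above Dixon's 95% limit for 6 values. Chance gives about 1 such library in 20 sets. The same library had the highest pituitary marker sum of the 36. No joint test of strain with diet or sex called any of the 6 genes by edgeR, and 1 of them, Me3, had an unadjusted p under 0.05 for strain by diet.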

How the results depend on the processing

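No paired analysis was possible because the labels give no replicate numbers that the groups share. The calls of Nnt and Me3 against C57BL/6J, and of Idh2 for CAST/EiJ, held under every alternative run, and no called value changed sign. Strain calls of members lost or gained, as log2 difference: for CAST/EiJ against C57BL/6J, Txn2 (HFHS alone 0.11, males alone 0.086), Prdx3 (0.13, 0.12) and Glud1 (males 0.065); for NZO/HlLtJ less CAST/EiJ, Nnt (control alone −0.065, females −0.080, males −0.12), Txn2 (HFHS −0.074, males −0.040, without both pituitary-rich libraries −0.072), Glud1 (HFHS −0.078, males −0.078) and, gained, Me3 (control −0.14). Me3 by diet in CAST/EiJ was gained in females (−0.27) and with DESeq2 (−0.21). Leaving out 1 library gave −0.13 to −0.081 for Nnt and −0.14 to −0.080 for Txn2 between NZO/HlLtJ and CAST/EiJ, and for diet in CAST/EiJ −0.18 to −0.038 for Idh2, −0.22 to −0.18 for Me3 and −0.18 to −0.11 for Prdx3. Fewer libraries or other fits moved counts of genes called: NZO/HlLtJ against C57BL/6J 5331 to 3160 (HFHS alone), 3095 (females) and 3542 (males); diet in C57BL/6J 0 to 3 (DESeq2), and 0 to 2 without 1 library; diet in NZO/HlLtJ 29 to 4 (females), 3 (males), 173 (its own libraries), 150 (DESeq2) and 154 (without both pituitary-rich libraries, chosen after seeing the data), and 7 to 98 without 1 library; diet in CAST/EiJ 24 to 13 (no filter), 884 (females), 1 (males), 6 (its own libraries), 395 (DESeq2) and 7 (without both), and 7 to 2681 without 1 library; diet over strains 6 to 0 (males), 12 (without both) and 16 (DESeq2); strain by diet 23 to 68 (strict filter), 39 (without both) and 463 (DESeq2), and 4 to 1431; sex 35 to 90 (DESeq2), and 27 to 161; strain by sex 0 to 1 (without both), 1 (limma) and 23 (DESeq2), and 0 to 971. In diet in CAST/EiJ, strain by diet, sex and strain by sex the highest count came without CAST/EiJ control female 2; the cause was not tested. With VST values 1 of the 5 genes most like Nnt and 2 of the 3 mirror images were shared, and no within-strain correlation passed. The members had at least 478 counts per library; counting error was not separated from the spread between libraries, and depth is a part of it.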
